A study of Mus musculus with 4 samples.

Results

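Ribosome biogenesis genes encode the proteins that transcribe ribosomal RNA in the nucleolus, cut and modify it, and fold it with ribosomal proteins into the small and large ribosomal subunits. The set described here was a list of 40 nucleolar, rRNA processing and RNA polymerase I genes, chosen with earlier results of these data known. All 40 were found on the array, through 42 probe sets, among 19938 genes in all. RNA polymerase I makes the ribosomal RNA precursor, small nucleolar ribonucleoproteins guide its chemical modification, and separate sets of assembly factors then build each subunit. Output of this pathway sets how much protein a growing blood progenitor can make, and the transcription factor MYC is a well known activator of many of its genes.

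Gene expression was measured with Affymetrix gene arrays in mouse colony-forming cells of C57BL/6 background, grown in methylcellulose with GM-CSF, SCF and the interleukins IL-3 and IL-6. The colonies came from long-term or short-term haematopoietic stem cells (LT-HSC, ST-HSC), the first of which can rebuild blood for longer in a transplanted host, and each population had been transduced with mock or with CreER, a Cre recombinase fused to an oestrogen receptor domain. The 4 groups are therefore ST-HSC mock, ST-HSC CreER, LT-HSC mock and LT-HSC CreER, with 1 array each, and array values below are given in this order. The series title names conditional expression of the leukaemia fusion MLL-ENL. The allele that carries the fusion, how CreER was activated, the vector and its promoter, and the number of animals are not known from the labels. RNA came from whole colonies, so fewer cells of a type and less RNA per cell cannot be told apart. Values are log2 levels as deposited, and the median level of each array, taken over probe sets with 1 gene symbol and called the floor, lay between 8.07 and 8.13. Of the 40 genes, 39 were above the floor on all 4 arrays. Rrs1 was above it on the LT-HSC arrays alone.

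Colony markers showed mixed myeloid cells on every array. Of 9 progenitor and primary granule markers, 8 or 9 were above the floor on each array, as were all 12 neutrophil markers. None of 5 lymphoid markers was above it on any array. The stem cell labels describe the cells that were plated, and the arrays report their colonies.

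The 40 ribosome biogenesis genes were, as a group, higher in colonies from LT-HSC than in colonies from ST-HSC, with either transduction. Further genes of the pathway, given below, had smaller differences. The median difference over the 40 genes was 0.34 on the log2 scale with mock and 0.37 with CreER, against -0.03 and -0.02 over all genes above the floor on the higher array. With mock, 37 of the 40 genes were above 0, against 45.1% of all genes, and with CreER 38 were, against 46.1% of all genes. For 35 of the 40, both LT-HSC arrays lay above both ST-HSC arrays, an order found in 24.6% of all 10411 genes above the floor on at least 1 array. The exceptions were Utp15, Heatr1, Bysl and Pes1, whose arrays overlapped, and Polr1e, which was lower on both LT-HSC arrays. The differences were modest in size: 4 of the 40 genes were at least 1.5-fold higher with mock, against 5.47% of all genes, and 16 with CreER, against 3.62%. The 4 were Gnl3, Nop58, Dkc1 and Ncl. None reached 2-fold. With arrays centred on their medians, the counts at 1.5-fold were 2 and 7.

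**Figure D1:**
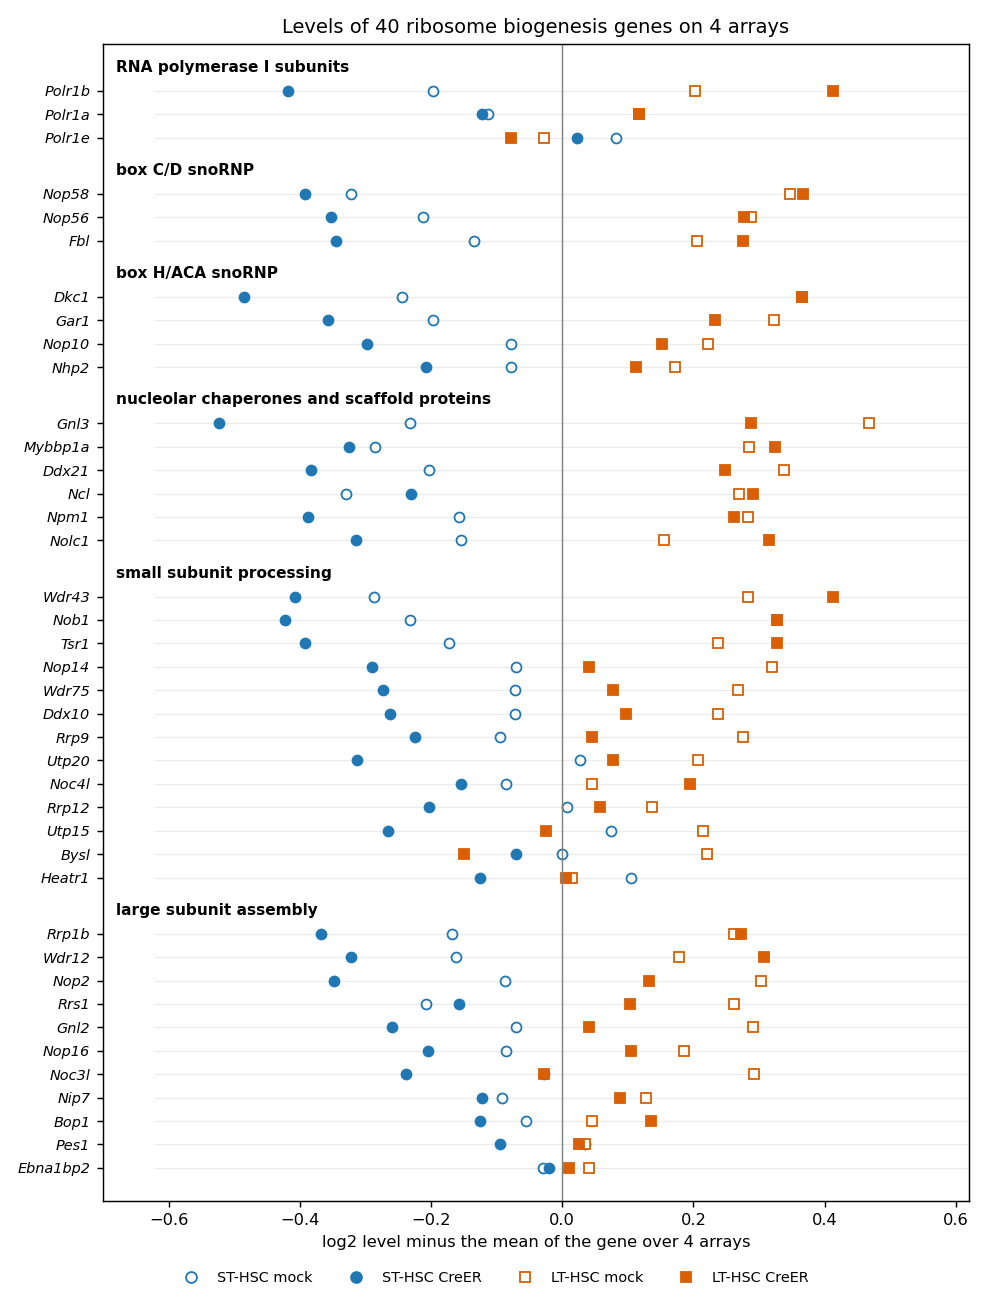
Each row is a gene and each symbol 1 array. The horizontal axis gives the log2 level minus that gene's mean over the 4 arrays, so that rows show differences between arrays and not levels between genes. Circles are ST-HSC arrays and squares LT-HSC arrays, open for mock and filled for CreER. Squares lie to the right of circles in 35 of 40 rows, and the filled circle (ST-HSC CreER) is the lowest point in 35 rows.

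An additive limma fit over all 10411 genes, with terms for population and transduction, set the LT-HSC against ST-HSC difference beside the spread left between the arrays. In this fit 12 of the 40 genes had a Benjamini-Hochberg adjusted p under 0.05, all of them higher in LT-HSC-derived colonies, against 3.78% of all genes called in that direction. They were Gnl3, Nop58, Dkc1, Wdr43, Mybbp1a, Nob1, Ddx21, Ncl, Gar1, Nop56, Npm1 and Rrp1b. The median limma estimate over the 40 genes was 0.36, against -0.02 over all genes, and 39 of the 40 estimates were above 0. With 1 array per group the fit has 1 residual degree of freedom, the gap between the population differences with mock and with CreER. A real difference of that kind would be counted as error. The standard errors also draw on the spread of all genes, with 4.27 prior degrees of freedom, and are not the spread of 1 gene alone. The p-values cover only these 4 arrays, and on simulated data it called more false genes than the threshold implies. The count of 12 was 7 after cyclic loess normalization, and it was 5 of 27 under a floor at the 75th percentile.

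Nucleolar chaperones and scaffold proteins held the highest share of calls, 5 of 6, against 3.78% of all genes called higher. Gnl3, which encodes the nucleolar GTPase nucleostemin of stem and proliferating cells, read 9.70, 9.41, 10.40 and 10.22. Both LT-HSC arrays stood clear of both ST-HSC arrays, and the limma estimate was 0.76 ± 0.095 (SE), a 1.69-fold difference with a limma adjusted p of 0.0182. Ncl encodes nucleolin, an abundant RNA-binding protein of the nucleolus. It read 11.73 and 11.83 on the ST-HSC mock and CreER arrays and 12.33 and 12.35 on the matching LT-HSC arrays, with an estimate of 0.56 ± 0.094 (SE) and a limma adjusted p of 0.0365. Npm1, the gene of the nucleolar chaperone nucleophosmin, which is often mutated in acute myeloid leukaemia, read 11.36 and 11.13 in ST-HSC-derived and 11.80 and 11.78 in LT-HSC-derived colonies. Its estimate was 0.54, just past the threshold at a limma adjusted p of 0.0471. Ddx21, an RNA helicase that couples RNA polymerase I with rRNA processing, had an estimate of 0.58, and Mybbp1a, a nucleolar MYB-binding protein, one of 0.61. Nolc1, a phosphoprotein that binds small nucleolar ribonucleoproteins, read 10.02, 9.86, 10.33 and 10.49. It had an estimate of 0.47 and did not pass, at a limma adjusted p of 0.0785.

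All 7 small nucleolar ribonucleoprotein genes among the 40 were higher on both LT-HSC arrays than on both ST-HSC arrays, against 24.6% of all genes. Of the 7, 4 passed limma, against 3.78% of all genes called higher. The box C/D particles add methyl groups to rRNA. Of their proteins, Nop58 read 9.86 and 9.79 on the ST-HSC arrays, against 10.53 and 10.55 on the LT-HSC arrays. The LT-HSC arrays nearly coincided, and the limma estimate was 0.72 ± 0.094 (SE) with an adjusted p of 0.0204. Its partner Nop56 read 11.54, 11.40, 12.04 and 12.03 on the same arrays, with an estimate of 0.56 and a limma adjusted p of 0.0391. Fbl, the methyltransferase fibrillarin, read 10.04, 9.83, 10.38 and 10.45, and its estimate of 0.49 missed the threshold at a limma adjusted p of 0.0716. A second Fbl probe set, annotated to the same transcript, read 9.83, 9.64, 9.97 and 10.12, so that its LT-HSC minus ST-HSC difference was 0.14 with mock and 0.49 with CreER, against 0.34 and 0.63 for the one used. Snu13, a further box C/D protein listed with the other small subunit genes and named after its values were seen, read 12.35, 12.09, 12.52 and 12.51 and was not called, at a limma adjusted p of 0.172.

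The box H/ACA particles convert uridine to pseudouridine. Dkc1, the pseudouridine synthase dyskerin, read 9.59 on ST-HSC mock, 9.35 on ST-HSC CreER and 10.20 on both LT-HSC arrays. Its estimate of 0.73 ± 0.105 (SE) was the second of the 40 in size, with a limma adjusted p of 0.0257. Gar1 read 9.89, 9.73, 10.41 and 10.32, in the same order of arrays, and passed with an estimate of 0.55 and a limma adjusted p of 0.0377. Of the remaining proteins of this particle, Nop10 read 11.35, 11.13, 11.65 and 11.58, and Nhp2 read 9.96, 9.83, 10.21 and 10.15. Neither passed, at limma adjusted p-values of 0.0898 and 0.144, and both kept the LT-HSC arrays above the ST-HSC arrays.

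Of the 3 RNA polymerase I subunits among the 40, Polr1a and Polr1b were higher on both LT-HSC arrays and Polr1e was not. Polr1b, which encodes the second largest subunit, read 9.82, 9.60, 10.22 and 10.43, with an estimate of 0.61 ± 0.131 (SE) and a limma adjusted p of 0.0623. Polr1a, the largest subunit, read 9.53, 9.52, 9.76 and 9.76, an estimate of 0.24 with a limma adjusted p of 0.191. Polr1e, a subunit involved in initiation and elongation, read 9.28 and 9.22 on the ST-HSC arrays and 9.17 and 9.12 on the LT-HSC arrays. It was the one gene of the 40 with both LT-HSC arrays lowest, at an estimate of -0.10 and a limma adjusted p of 0.527. Thus no subunit among the 3 passed, against 3.78% of all genes called higher, and 3 genes are too few to show a different share. Whether the subunits differ from each other was not tested.

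Small subunit processing factors had 2 of 13 called, against 3.78% of all genes called higher, and a median limma estimate of 0.32. Wdr43, a WD-repeat protein of the particle that processes the small subunit RNA, read 10.42, 10.30, 10.99 and 11.12. Its estimate was 0.70 ± 0.106 (SE), with a limma adjusted p of 0.0291. Nob1, the endonuclease that makes the last cut of the small subunit RNA, read 10.49, 10.30, 11.05 and 11.05, with an estimate of 0.65 and a limma adjusted p of 0.0294. Tsr1, a late assembly factor, fell just outside the threshold at a limma adjusted p of 0.0549, with an estimate of 0.57. At the other end, Heatr1, a large scaffold protein of the same early particle, read 10.77, 10.54, 10.68 and 10.67, and its ST-HSC mock array was the highest. Bysl, the late assembly factor bystin, read 9.28, 9.21, 9.50 and 9.13, and Utp15 read 9.83, 9.49, 9.97 and 9.73, so that their populations overlapped. Utp20, a scaffold of the early particle, read 9.49, 9.15, 9.67 and 9.54. Noc4l read 10.03, 9.96, 10.16 and 10.31, and Nop14 read 9.56, 9.34, 9.95 and 9.67. In each of these 3 genes both LT-HSC arrays were the higher ones. Nop14, Wdr75, Ddx10, Rrp9, Utp20, Noc4l and Rrp12 had estimates of 0.36, 0.35, 0.33, 0.32, 0.28, 0.24 and 0.19, none called.

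Large subunit assembly factors had 1 of 11 called, Rrp1b, against 3.78% of all genes called higher, and a median estimate of 0.29. With 1 call, that share cannot be told apart from that of all genes. Rrp1b read 9.70, 9.50, 10.13 and 10.14 in the array order above, with an estimate of 0.54 and a limma adjusted p of 0.0485, the last of the 12 to pass. The PeBoW complex, which matures the large subunit RNA and consists of Pes1, Bop1 and Wdr12, showed unequal differences. Pes1 read 10.10, 9.97, 10.10 and 10.09, an estimate of 0.06, and Bop1 read 10.30, 10.23, 10.40 and 10.49, an estimate of 0.18. Wdr12 had an estimate of 0.49 with a limma adjusted p of 0.0712. Its 2 probe sets both read higher on the LT-HSC arrays, at 9.76, 9.60, 10.10 and 10.23 for the one used here and 8.46, 8.57, 8.97 and 8.89 for the other. The other set had CreER minus mock differences of the opposite sign, 0.11 for ST-HSC and -0.09 for LT-HSC against -0.16 and 0.13, and a population difference with CreER of 0.31 against 0.63. Which Fbl and Wdr12 probe set lies at the gene is not known here. With the mean of all probe sets taken for every gene, 14 and not 16 of the 40 genes were at least 1.5-fold higher with CreER. In limma 10 and not 12 then passed. Fbl and Wdr12 were not among the 12. That setting changed the values of all 999 genes with several probe sets, and so the fit and the adjustment over all genes. Nop2, an rRNA methyltransferase linked to proliferation, had an estimate of 0.43 and a limma adjusted p of 0.0657. Rrs1, Gnl2, Nop16, Noc3l and Nip7 had estimates of 0.37, 0.33, 0.29, 0.27 and 0.21. Ebna1bp2 had the narrowest spread of all, at 9.56, 9.57, 9.63 and 9.60.

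The gene-by-gene size of the LT-HSC against ST-HSC difference recurred between the transductions, whose differences share no array. Across the 40 genes, which are not independent replicates, the difference with mock and that with CreER had a Pearson r of 0.81 and a Spearman rho of 0.81, against 0.71 and 0.58 over all 10411 genes. Both had the same sign for 37 of the 40, or 92.5%, against 69.9% of all genes. Gnl3, Dkc1 and Nop58 were at least 1.5-fold higher in LT-HSC-derived colonies with both transductions. The points within each axis share their arrays, so this describes these 4 arrays.

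**Figure D2:**
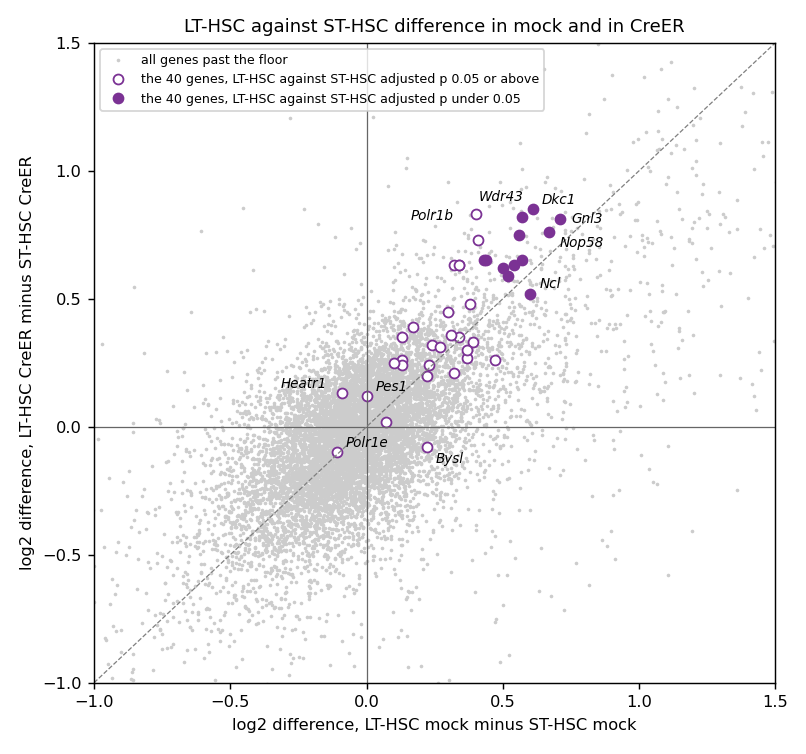
Each point is a gene, with its LT-HSC minus ST-HSC log2 difference with mock on the horizontal axis and with CreER on the vertical axis. Grey points are all genes above the floor on at least 1 array, of which some lie outside the axes. Purple points are the 40 ribosome biogenesis genes, filled where the limma adjusted p for population is under 0.05, and the dashed line marks equal differences. Gnl3 and Dkc1 lie at the upper right, and Polr1e lies below 0 on both axes.

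Promoter sequences of the 40 genes, where held, were searched for short motifs, and a link between motif and level was not tested. Promoter windows from 250 bases before to 50 after the start site were held for 34 of the 40 genes as 37 windows, from RefSeq on GRCm38.p6. The letters CACGTG, the E-box that MYC and MAX bind and a palindrome, occurred in 6 of the 37 windows (16.2%), against 10.3% of windows of genes above the floor and 7.15% of all windows. The 6 genes were Nop2, Utp20, Pes1, Mybbp1a, Tsr1 and Wdr43. Of these, Mybbp1a and Wdr43 were among the 12 called, and the remaining 4 were not, at limma adjusted p-values of 0.0549 for Tsr1, 0.0657 for Nop2, 0.176 for Utp20 and 0.746 for Pes1. The letters CCGGAAG, a core bound by ETS factors, searched on both strands as CCGGAAG and CTTCCGG, occurred in 11 windows (29.7%), against 18.3% and 8.86%. GCATGCGC, part of the NRF1 site, searched also as GCGCATGC, occurred in 1 window (2.7%), that of Nob1, against 5.39% and 2.71%. The windows of the 40 genes and of genes above the floor are both richer in G and C than all windows, with medians of 57.6%, 60% and 52.4% over the 250 bases before the start site. The motifs were chosen with the expression values known, and a match is a description of the letters.

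The E-box windows are shown as 30 bases with the E-box in capitals, to set the called genes beside those not called. Each is 5′ to 3′ on the strand of its gene, on GRCm38.p6. Mybbp1a lies on the plus strand at chr11:72441347-72441376, Wdr43 on the plus strand at chr17:71616220-71616249, Tsr1 on the plus strand at chr11:74898092-74898121 and Pes1 on the plus strand at chr11:3963965-3963994. Utp20 lies on the minus strand at chr10:88826765-88826794. Counted from the start site, the first base of the E-box is at position 41 in Mybbp1a, 18 in Wdr43, 25 in Tsr1, 3 in Pes1 and 38 in Utp20.
Mybbp1a: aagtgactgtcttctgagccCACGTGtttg
Wdr43: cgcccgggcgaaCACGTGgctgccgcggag
Tsr1: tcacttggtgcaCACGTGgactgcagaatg
Pes1: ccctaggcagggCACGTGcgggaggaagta
Utp20: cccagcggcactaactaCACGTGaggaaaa

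Nop2 was the one gene with CACGTG and CCGGAAG both upstream of the start site, 60 and 38 bases before it, so its 250 upstream bases are shown whole. They lie on the plus strand of GRCm38.p6 at chr6:125131633-125131882, with both motifs in capitals.
Nop2: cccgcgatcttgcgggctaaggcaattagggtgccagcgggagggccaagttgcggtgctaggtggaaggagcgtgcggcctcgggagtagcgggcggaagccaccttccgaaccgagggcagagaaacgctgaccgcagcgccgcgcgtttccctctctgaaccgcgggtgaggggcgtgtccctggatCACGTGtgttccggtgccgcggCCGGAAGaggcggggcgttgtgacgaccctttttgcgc

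Myc, the gene of the activator named above, was also higher in LT-HSC-derived colonies. It read 11.66 and 11.70 on the ST-HSC mock and CreER arrays and 12.26 and 12.27 on the LT-HSC arrays, with an estimate of 0.58 ± 0.092 (SE) and a limma adjusted p of 0.031. The LT-HSC arrays were nearly equal and so were the ST-HSC arrays. Mycn, its paralogue, read 7.42 and 7.63 on the ST-HSC arrays, under the floor, and 8.35 and 8.47 on the LT-HSC arrays, with a limma adjusted p of 0.0124. Of 11 genes of the MYC network in the fit, Myc and Mycn were the 2 that passed, against 3.78% of all genes called higher. None was called lower. Mycn entered the fit only through the LT-HSC arrays, on which it is higher, so the filter favoured its call. The antagonists Mxi1 and Mxd3 had estimates of -0.30 and -0.38, with limma adjusted p-values of 0.129 and 0.0806. Other antagonists did not share one direction: Mxd1 was at -0.12, Mxd4 at 0.30 and Mnt at 0.21. Mxd4 and Mnt were named after their values were seen. Over the 11 network genes the median estimate was -0.03, against -0.02 over all genes.

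Further genes of the pathway had smaller differences, and their shares of calls are to be read beside the 3.78% of all genes called higher. Of 46 other small subunit processing genes in the fit, 3 were called higher in LT-HSC-derived colonies and 0 lower, with a median estimate of 0.17 against -0.02 over all genes. They were Rcl1, a factor of early rRNA cleavage, at 0.67, Wdr46 and Nol6. Of 45 other large subunit assembly genes, 4 were called higher and 0 lower, with a median of 0.20. They were Mdn1, a giant ATPase that remodels the large subunit precursor, at 0.53, and Nifk, Gtpbp4 and Rrp15. Other RNA polymerase I and rDNA transcription genes had 0 of 15 called, at a median of 0.12. At an unadjusted p under 0.05, 3 of them were higher and 1 lower, against 11.6% of all genes higher and 1465 of 10411 lower. Wdr46, Nol6, Mdn1, Nifk, Gtpbp4 and Rrp15 were named after their values were seen.

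Ribosomal protein genes, whose products the pathway assembles, showed small differences in 1 direction. Of 55 measured, 54 were above 0 with mock at a median of 0.15, against 45.1% of all genes, and all 55 with CreER at a median of 0.21, against 46.1%. In limma 0 of 55 passed an adjusted p of 0.05, the smallest being 0.0663, and 17 were higher with an unadjusted p under 0.05, against 11.6% of all genes. Rpl14 had the largest difference with mock, 0.65, and Rpl13 the largest with CreER, 0.51. Nucleotide synthesis genes, which supply RNA precursors, had a median of 0.10 with mock and 0.38 with CreER, where all 15 were above 0. Cad, the first enzyme of pyrimidine synthesis, read 9.30, 9.12, 9.64 and 9.81, and was highest on the LT-HSC arrays.

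Cell cycle genes took another course. With mock, 28 of 30 were lower in LT-HSC-derived colonies, at a median of -0.23, against 5604 of 10208 over all genes. With CreER 21 of 30 were higher, at a median of 0.07, against 46.1% of all genes. Bub1, a mitotic checkpoint kinase, read 11.61, 11.50, 10.82 and 11.35 in the same array order. In limma 0 of 30 passed for population. At an unadjusted p under 0.05, 1 was higher and 2 lower, against 11.6% of all genes higher and 1465 of 10411 lower. Genes of MTOR and growth signalling had a median limma estimate of -0.05, with 0 of 9 called. At an unadjusted p under 0.05, 1 was higher and 1 lower, against the same shares of all genes.

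**Figure D3:**
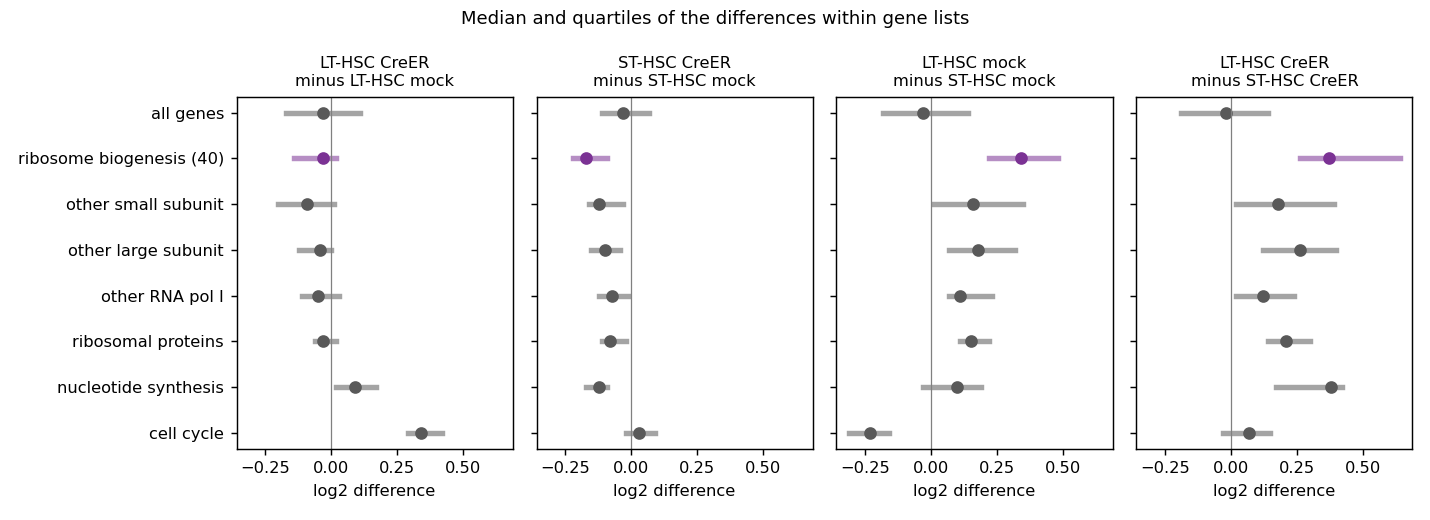
Each panel is 1 comparison of 2 arrays. Dots give the median log2 difference of a gene list and bars run from its lower to its upper quartile over genes above the floor on the higher array; bars show the spread over genes, not an error. The ribosome biogenesis genes, in purple, have medians of -0.03, -0.17, 0.34 and 0.37 from left to right, and cell cycle genes have medians of 0.34, 0.03, -0.23 and 0.07.

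Markers of cell types also differed between the populations, in both directions. Over all genes, 45.1% were above 0 with mock and 46.1% with CreER. All 10 measured mast cell and basophil markers were higher in LT-HSC-derived colonies with both transductions, and their mean level was 9.22 on ST-HSC mock and 9.65 on ST-HSC CreER against 11.57 and 11.13 on the LT-HSC arrays. Of these markers, 6 were above the floor on ST-HSC mock and 8 on ST-HSC CreER, and 10 on each LT-HSC array. All 5 megakaryocyte markers were also higher with both transductions, with means of 9.11 and 9.45 against 10.71 and 10.80. The 5 eosinophil markers had medians of 1.92 with mock and 0.61 with CreER. Neutrophil markers had medians of -0.15 with mock and -0.33 with CreER. With mock 3 of the 12 were above 0, the highest at 1.82, and with CreER all 12 were lower. Macrophage and monocyte markers had medians of 0.05 with mock and -0.56 with CreER, where all 10 above the floor were lower. The part of these markers in the difference of ribosome biogenesis genes was not tested.

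CreER against mock gave a smaller and less even picture. In ST-HSC-derived colonies 37 of the 39 genes above the floor were lower with CreER, against 57.4% of all genes, at a median of -0.17. None of them was 1.5-fold different, against 1.99% of all genes. The largest of these differences were those of Utp20 at -0.35, Utp15 at -0.34 and Gnl3 at -0.29. Ncl, at 0.10, and Ebna1bp2, at 0.01, were the 2 above 0. Rrs1 read 7.89 and 7.94 on the ST-HSC mock and CreER arrays, both under the floor, a difference of 0.05. It read 8.36 and 8.20 on the matching LT-HSC arrays. The ST-HSC CreER array was the lowest of the 4 for 35 of the 40 genes. It enters both this comparison and that of the populations with CreER, so the differences are not separate observations.

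In LT-HSC-derived colonies the same transduction left the genes nearly level as a group. Their median was -0.03, the same as over all genes, and 28 of the 40 were below 0, against 55.6% of all genes. None was 1.5-fold different, against 4.1% of all genes. Bysl (-0.36), Noc3l (-0.32) and Nop14 (-0.28) were furthest below 0, and Polr1b (0.20), Nolc1 (0.16) and Noc4l (0.15) furthest above. Noc3l, a factor of large subunit export, read 9.49 and 9.17 on the LT-HSC arrays, against 9.17 and 8.96 on the ST-HSC arrays. Quantile normalization raised the count above 0 from 12 to 19 of 40.

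In the limma fit 0 of the 40 genes passed an adjusted p of 0.05 for CreER against mock, as did 0% of all genes. At an unadjusted p under 0.05, 3 of the 40 were lower, namely Utp15, Noc3l and Nop14, and 0 were higher, against 6.77% of all genes lower at that level. Utp15, which belongs to the particle that binds the nascent rRNA, had the largest estimate, -0.29 ± 0.095 (SE), with a limma adjusted p of 0.426. The CreER differences of the 40 genes in the populations, which share no array, had a Pearson r of 0.21 and a Spearman rho of 0.22, against 0.22 and 0.25 over all genes. Of the 40, 26 were lower with CreER in both populations, against 35.3% of all genes, and 11 were higher in the LT-HSC and lower in the ST-HSC population, against 21.9%. The sign was the same in both populations for 67.5% of the 40 and 58.1% of all genes.

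**Figure D4:**
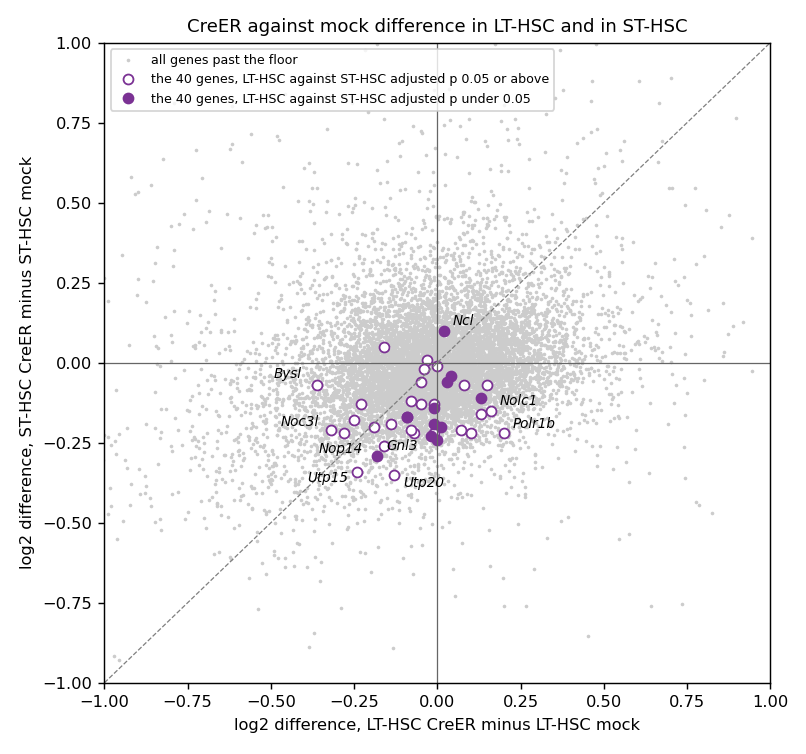
Each point is a gene, with its CreER minus mock log2 difference in LT-HSC-derived colonies on the horizontal axis and in ST-HSC-derived colonies on the vertical axis. Grey points are all genes above the floor on at least 1 array, of which some lie outside the axes, and purple points are the 40 genes, filled where the limma adjusted p for population is under 0.05. Most purple points lie below 0 on the vertical axis and on both sides of 0 on the horizontal axis; Bysl is furthest left at -0.36 and Polr1b furthest right at 0.20.

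The CreER difference was higher in LT-HSC-derived than in ST-HSC-derived colonies for 31 of the 40 genes, against 48.9% of all genes, with a median gap of 0.10. This gap equals that between the population differences with CreER and with mock, and 4 arrays leave no degrees of freedom to test it. The additive fit takes the same gap as its error. It ran from -0.29 for Bysl to 0.43 for Polr1b. Over the same arrays, cell cycle genes had a median CreER difference of 0.34 for LT-HSC and 0.03 for ST-HSC. All 9 progenitor and primary granule markers were higher with CreER in LT-HSC-derived colonies, at a median of 0.50, against 44.4% of all genes. All 11 macrophage and monocyte markers were lower, at a median of -1.21, against 55.6% of all genes. In ST-HSC-derived colonies these medians were -0.01 and -0.42. The part of these shifts in the CreER differences of ribosome biogenesis genes was not tested.

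Genes with profiles most like the 40 over the 4 arrays were sought among 9311 other genes above the floor on all arrays, by Euclidean distance of mean-centred log2 levels to the median profile. That profile was -0.09, -0.29, 0.24 and 0.14 in the array order above. The nearest were Tmppe (0.019), Tmem201 (0.038), the ribosomal protein gene Rps21 (0.038), Zfp146 (0.040) and Atr (0.041). Among the 40 themselves, Nop10 (0.028) and Ddx10 (0.053) lay nearest to the median profile, and Polr1e (0.493) and Gnl3 (0.391) farthest.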

How the data were processed

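The deposited values are log2 levels, 1 for each probe set; their range, 2.21 to 14.82, shows the unit. The submitters' processing notes name Affymetrix Expression Console. The version and summarisation were not given in the sources used here. All 4 arrays have nearly equal distributions and were used as deposited. Of 35556 probe sets, the platform annotation gave 21789 1 gene symbol, 1621 several and 12146 none here. Genes with several probe sets (999 of 19938) took the probe set of highest mean level, which for Fbl and Wdr12 chose 1 of 2; the annotation gives both sets of each gene the same RefSeq transcripts and does not say which lies at the locus.

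A pairwise difference was kept where the higher array lay above its floor, and has no test. The additive model was fitted with limma 3.58.1 in R 4.3.3 (lmFit, eBayes; 4.27 prior degrees of freedom) over 10411 genes, with Benjamini-Hochberg adjustment over all of them. On simulated data the fit called more false genes than its threshold implies. The simulated arrays had independent normal errors and no CreER effect, unlike real arrays. Adjusted p-values near the threshold are therefore to be read as possibly too small, by an amount not known here. Nothing in the labels says that the arrays come from separate animals, so p-values measure only the spread between arrays, pooled in part over genes. Precision is limited by the number of arrays.

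The 40 genes, the other lists and the tests were chosen with earlier results of these data known. Full values were given for the 3 genes furthest to each side in each comparison and for polymerase and small nucleolar particle genes, with others as examples. Of other lists, Myc and up to 4 genes, the 2 furthest to each side, could be named; exceptions are marked in the text. Alternatives were other normalizations, floors, probe set rules, thresholds and a trended eBayes prior. Of listed genes, those without a probe set of their own here were not analysed. Other lists were dendritic cell, with medians of -0.79, -0.13, 0.10 and -0.48 in the order of the list plot, eosinophil, with 0.25, 1.08, 1.92 and 0.61, and p53 genes, with -0.27, 0.08, 0.14 and -0.03; of 4 erythroid genes at most 2 were above the floor. Olfactory and vomeronasal receptor genes, mostly silent in blood, had medians of 0.09, 0.01, -0.01 and 0.06 without a floor.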

Additional observations from a re-analysis of the deposited data

Results flagged for a closer look

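Polr1b was set apart because its CreER difference ran in opposite directions in the populations by at least 0.2 each way, at 0.20 for LT-HSC and -0.22 for ST-HSC, a gap of 0.43. It was the one of the 40 genes to do so. The gap rests on 4 single arrays and was not tested, and its cause was not tested.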

How the results depend on the processing

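Of 98 recomputed values over 15 results, 88 stayed close to the reported one. Close meant a median within 0.1, a share within its exact 95% binomial interval, or a count within 1.5 times. Some of the 88 could not move. A count of 0 at 1.5-fold has to be 0 at 2-fold, and dropping the floor could add only Rrs1 to a pairwise comparison. The interval also treats the genes as independent, which they are not, so the 88 is a tally and not a measure of certainty. The median LT-HSC against ST-HSC difference ranged from 0.31 to 0.39 with mock and from 0.31 to 0.63 with CreER. The 0.63 came with the floor at the 75th percentile, where 27 genes were left and 27 were above 0. A gene passes by its higher array, so genes high on the LT-HSC arrays can pass through those arrays alone. In the ST-HSC CreER against mock comparison that floor left 17 genes. The 0.63 and the 27 of 27 can therefore come in part from the filter. The count passing limma for population was 12 of 40 as reported, 7 with cyclic loess normalization, 5 with the floor at the 75th percentile and 21 at an adjusted p of 0.1. The counts at 1.5-fold fell from 4 to 2 with mock and from 16 to 7 with CreER when arrays were centred on their medians, and were 0 and 0 at 2-fold. In LT-HSC-derived colonies the count above 0 for CreER minus mock was 19 with quantile normalization, against 12, and its median stayed between -0.06 and -0.01. The cause of these shifts was not tested. The additive fit already compares the populations within each transduction, and the labels give no replicate numbers for a further pairing. With 1 array per group, no array could be left out of a pairwise difference. The median of all genes moved by less than 0.1 under each scaling.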
